A study of Zea mays with 18 samples.

Results

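Endosperm of the maize inbred B73 collected 2 days after pollination (DAP) was compared with the central cell of unfertilized ears (0 DAP). The comparison took 6 of the 18 libraries of the series, 3 of 2 DAP endosperm and 3 of central cell, and the genes that reached 1 CPM (read counts scaled to a common library size) in at least 3 of these 6 libraries, 26511 of the 38300 in the deposited table. Plants of both groups were grown in a greenhouse and carried no transgene or mutation named in the labels. The 2 DAP ears were self-pollinated and the 0 DAP ears were left unfertilized. Tissue was cut from kernel sections by laser capture, and each library pooled sections of several kernels of a single ear, so a library is an average over kernels. The labels do not say that the ears of different replicates were grown apart, so the p-values measure the spread between these libraries. In both groups RNA amounts were read from the 18S band on account of a product carried over from extraction, and the RNA was amplified before sequencing. Levels at 1 DAP (3 endosperm libraries, handled the same way) are given beside some genes as a description.

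The central cell is the large cell of the embryo sac that fuses with a sperm cell and founds the endosperm, the tissue that feeds the embryo. After fertilization its nuclei first divide without forming walls, and cell walls and the specialised tissues of the kernel (transfer layer, embryo-surrounding region, aleurone, starchy endosperm) come later. Polycomb repressive complex 2, which methylates histone H3, holds back division of the central cell in Arabidopsis until fertilization, and in Arabidopsis auxin made after fertilization is needed for the first endosperm divisions.

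The recovered reads were 124078873, 81035626 and 109432029 in replicates 1, 2 and 3 of 2 DAP endosperm, against 76074658, 78713950 and 44250242 in central cell. At 1 DAP they were 7688120, 63765568 and 54000646. In the shallow 1 DAP replicate 1, 3 reads correspond to 0.3346 CPM, so low 1 DAP levels are imprecise. In replicates of the same group, Pearson r of log2(CPM + 1) across genes was 0.922 to 0.975, and between a 2 DAP and a central cell library it was 0.761 to 0.824. Genes are not independent replicates, so these r values only describe how far apart the libraries lie. Between 24035 and 24252 genes reached 1 CPM in the 2 DAP libraries, against 25565 to 26711 in the central cell libraries.

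About as many genes were higher as were lower at 2 DAP. By limma on log2(CPM + 1), 12208 of 26511 genes (46.0%) were called at a Benjamini-Hochberg adjusted p under 0.05, of which 5803 (21.9% of the genes tested) were higher and 6405 (24.2%) were lower in 2 DAP endosperm than in central cell. The 3 libraries of one group did not overlap the 3 of the other for 14291 genes (53.9%). Large differences leaned to the lower side: 161 genes were higher and 374 lower by at least 3 on the log2 scale. The median log2 change over all genes was -0.03, and it was -0.19 when the values were scaled to equal totals without a normalization factor, which gave 4517 genes higher and 7367 lower. In what follows a log2 change is a difference of mean log2(CPM + 1), 2 DAP minus central cell, a fold is a ratio of mean CPM, and a gene list is set beside the shares above. Lists hold only genes with a name, and these were called more often than genes at large. Of 1660 tested genes with a name 925 were called, so the shares over all genes are a low background for a list. CPM is not divided by gene length, so levels are compared between groups and not between genes. Apart from markers, most genes named below were picked for being called with separate ranges. Where their ranges are said to be separate, this describes the choice and is not a further result.

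Some genes separated the groups almost completely. In 38 genes the 2 DAP mean was at least 10 CPM and every central cell library was under 0.5 CPM, but only 2 of these had a name, RR6 and sfp5. The other way round there were 93 genes, 14 of them named: the embryo sac peptide genes es1, es2 and es4, the cellulose synthase genes CesA12 and CesA13, the aquaporin gene NIP1-1, the phosphate transporter gene pht7, the oleosin gene ole17, the stress-related gene asr1, the glutamate decarboxylase gene GAD, the spermidine synthase gene spds2, and DSUL, CA and CNR2.

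**Figure D1:**
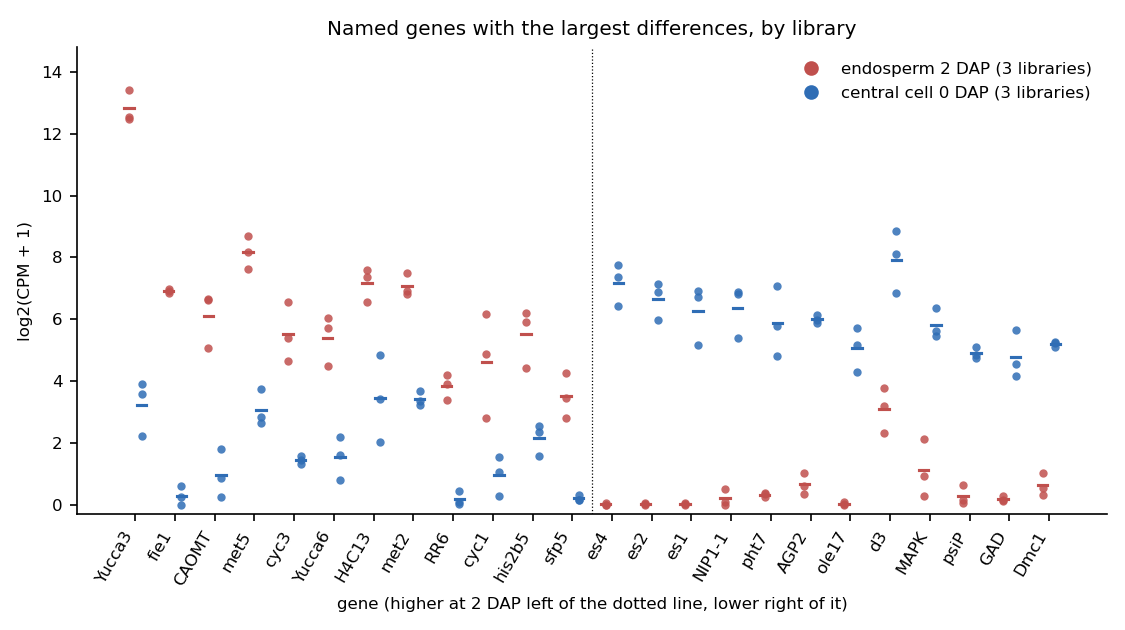
The 12 named genes with the largest rise (left of the dotted line) and the 12 with the largest fall (right of it); the vertical axis is log2(CPM + 1), each point is a library, each bar the mean of 3 libraries, 2 DAP endosperm left of central cell within each gene. The genes were chosen among those whose groups do not overlap, so the separation is not a result. Yucca3 has the largest difference, 9.58 on the log2 scale.

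The libraries were first checked against markers of the tissues named in the labels. EBE-1 (GRMZM2G129157) and EBE-2 (GRMZM2G167733), genes known from the maize central cell and the young endosperm, were present in every library. EBE-2 was at 582, 606 and 1211 CPM in 2 DAP endosperm, against 252, 627 and 257 CPM in central cell, and the groups overlapped (log2 change 1.13, SE 0.56, limma adjusted p = 0.107). It stood at 115 ± 25 CPM at 1 DAP (SD, n = 3), below both. Of the markers of later kernel tissues, those of the transfer layer and the embryo-surrounding region were near 0 in both groups, and of the 7 tested aleurone and starchy endosperm models 1 was called higher and 3 lower. The 15 transfer-layer genes together summed to 0.898, 0.143 and 0.477 CPM at 2 DAP, against 0.983, 2.1 and 0.804 CPM in central cell, and every member stayed under 1 CPM in all 6 libraries. The 5 genes of the embryo-surrounding region summed to 0.115, 0.0856 and 0.658 CPM at 2 DAP, against 0.291, 0.854 and 0.658 CPM in central cell. Of the aleurone genes, Nkd1 and Nkd2 were under 1 CPM in all 6 libraries, and of the 3 tested 1 rose, 1 fell and 1 was not called. dek1 (GRMZM2G321753), which encodes a calpain needed for aleurone identity, was higher at 2 DAP, with 34.7 ± 9.8 CPM against 13.4 ± 0.335 CPM in central cell (SD, n = 3 each; limma adjusted p = 0.000722). vpp1 (GRMZM2G069095) was lower, with 3.76 ± 0.892 CPM at 2 DAP against 20.5 ± 8.53 CPM in central cell (SD, n = 3 each; adjusted p = 3.33e-05), and cr4 averaged 2.93 CPM at 2 DAP and 2.9 CPM in central cell (adjusted p = 0.908). Of the 6 starchy endosperm and storage models 4 were tested. bt2 and gz27 fell, to means of 1.61 and 0.043 CPM at 2 DAP, against 7.33 and 4.01 CPM in central cell. sh2 and PBF (GRMZM2G146267) were not called (limma adjusted p = 0.856 and 0.711). PBF was present in every library, at 81.1, 79.8 and 60.7 CPM at 2 DAP, against 137, 60.1 and 65.9 CPM in central cell. sh2 averaged 7.76 CPM at 2 DAP and 7.01 CPM in central cell.

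Genes of the embryo sac other than EBE-1 and EBE-2 were nearly absent at 2 DAP. es4 (GRMZM2G009359), es2 (GRMZM2G128301) and es1 (GRMZM2G012012) encode small secreted peptides of the defensin-like type and were first found in the maize embryo sac. For es4, 0, 4 and 1 reads were recovered in the 2 DAP libraries, against 6090, 17333 and 6679 reads (84.4, 214 and 163 CPM) in the central cell libraries. es2 had 2, 3 and 1 reads at 2 DAP, against 4431, 11214 and 4787 reads in central cell. es1 had 1, 3 and 2 reads at 2 DAP, against 2519, 9744 and 4293 reads in central cell. All 3 genes lay in wholly separate ranges, and since the 2 DAP means were at or under the level of 3 reads a library, no fold is given (log2 changes -7.14, -6.62 and -6.24, with limma adjusted p = 5.56e-12, 5.56e-12 and 1.05e-08). At 1 DAP they averaged 9, 4.81 and 6.36 CPM. Replicate 1 was the lowest central cell library for all 3. A lower level in such tissue can come from fewer cells of a kind or from less RNA per cell, and these cannot be told apart here.

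Other marker lists also differed between the groups. The 9 embryo markers summed to 4.55, 2.8 and 6.24 CPM at 2 DAP, against 23.1, 45.1 and 61.2 CPM in central cell, and most of the central cell sum came from ole17 (GRMZM2G480954), an oleosin of oil bodies. ole17 had 2, 5 and 0 reads at 2 DAP, against 1345, 2861 and 2113 reads in central cell. The homeobox gene wox13A was lower too, but its 2 gene models (GRMZM2G038252 and GRMZM2G069274) have nearly identical values and may share reads. wox2A (GRMZM2G108933) was on the higher side but was not called, and its ranges overlapped (limma adjusted p = 0.213). It averaged 1.88 ± 0.941 CPM at 2 DAP and 0.815 ± 0.302 CPM in central cell (SD, n = 3 each), and 4.94 CPM at 1 DAP. wox9C, HB85 and CADR1 stayed under 0.5 CPM on average in both groups. The ovule MADS-box gene zag2 (GRMZM2G160687), the marker of nucellus and maternal tissue, was at 28, 21.8 and 19.8 CPM at 2 DAP, against 67.1, 79.9 and 92.1 CPM in central cell (log2 change -1.74, adjusted p = 0.0203). It was not called by edgeR, with a pseudocount of 0.25, or without central cell replicate 3, 2 DAP replicate 2 or 2 DAP replicate 3. A second maternal list, of photosynthetic tissue, held 2 genes. Its photosystem gene PSBQ (GRMZM2G021617) overlapped between the groups and was not called, at 12.8 ± 1.37 CPM at 2 DAP and 15.7 ± 1.94 CPM in central cell (SD, n = 3 each; adjusted p = 0.341), and cab-m1 was under 1 CPM in all 6 libraries. The part of neighbouring maternal or embryo sac tissue in the lower gene groups described here was not tested.

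**Figure D2:**
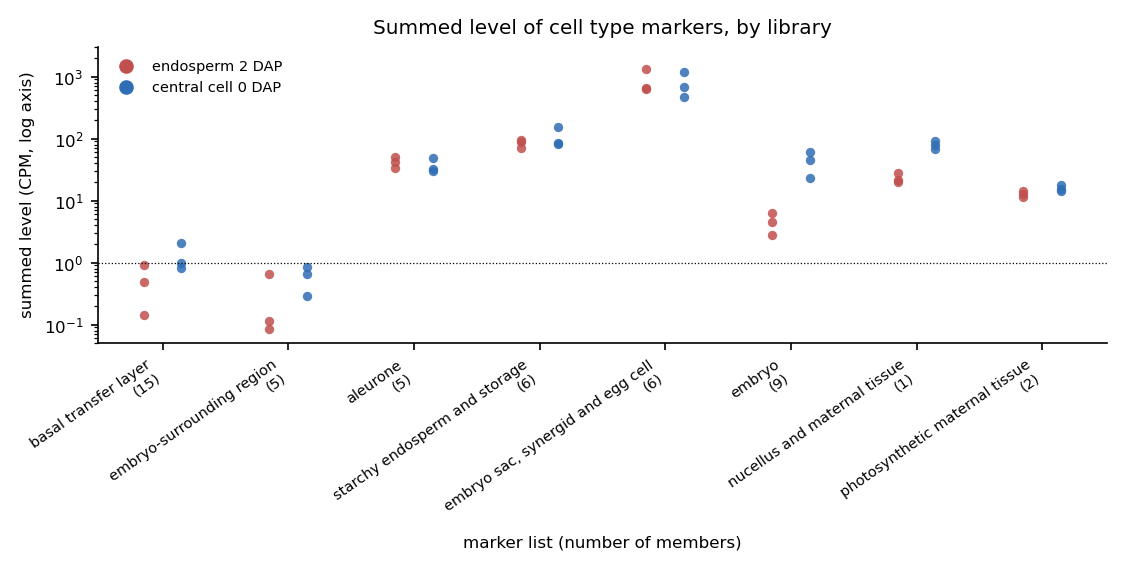
Summed CPM of each marker list (log axis, number of members in brackets) in each library, 2 DAP endosperm left of central cell; the dotted line is 1 CPM. Transfer-layer and embryo-surrounding-region sums stay near or under 1 CPM in every library, apart from 2.1 CPM of transfer-layer genes in central cell replicate 2, and the embryo and nucellus sums are lower in all 2 DAP libraries than in any central cell library, while the sums of the photosynthetic maternal list overlap.

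Yucca3 (GRMZM2G107761) had the largest rise of all genes tested on the log2(CPM + 1) scale. It encodes a flavin monooxygenase of the YUCCA family, which completes the main route of auxin synthesis. Yucca3 was at 5954, 10998 and 5694 CPM in 2 DAP endosperm, against 3.64, 14.2 and 10.9 CPM in central cell. Every 2 DAP library lay far above any central cell library, and replicate 2 was the highest of both groups. The ratio of the means was 788 (log2 change 9.58, SE 0.79, adjusted p = 8.12e-08), and the level at 1 DAP, 889 ± 151 CPM (SD, n = 3), lay in between. Yucca6 (GRMZM2G019515), another member of the family, was at 21.3, 51.8 and 64.6 CPM at 2 DAP, against 0.734, 2.07 and 3.58 CPM in central cell (21.6-fold, adjusted p = 1.62e-05). Unlike Yucca3 it was not yet up at 1 DAP, where it averaged 0.662 CPM.

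The auxin list as a whole, Yucca3 and Yucca6 included, went both ways. Of 48 members, 31 were tested, 7 rose (22.6%) and 12 fell (38.7%), with a median log2 change of -0.48 against -0.03 for all genes. The auxin response factor gene ARF12 (GRMZM2G437460) rose to 21 ± 1.91 CPM, against 7.96 ± 4.22 CPM in central cell, while the response factor gene ARF18 (GRMZM2G035405) fell to 4.43 ± 1.21 CPM, against 20.4 ± 11.6 CPM (SD, n = 3 each). abp1 (GRMZM2G116204), which encodes an auxin-binding protein, fell 3.13-fold. The other 17 of the 48 members did not reach 1 CPM in enough libraries, among them PIN1a and spi1, and with a filter at 5 CPM the number lower was 6.

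Cytokinin signalling runs from histidine kinase receptors through phosphotransfer proteins to response regulators. Of 22 members tested, 8 rose (36.4%) and 6 fell (27.3%). The response regulator gene RR6 (GRMZM2G129954) was at 9.58, 14.2 and 17.3 CPM at 2 DAP, against 0.0277, 0.0619 and 0.366 CPM in central cell. Its ranges were far apart and its mean was 90.3-fold higher (adjusted p = 1.38e-06). Only 2, 5 and 15 reads of RR6 were recovered in central cell, so the size of this fold is imprecise. The phosphotransfer gene HP1 (GRMZM2G016439) rose to 26, 45.8 and 224 CPM, against 2.45, 7.57 and 14.5 CPM in central cell. Its 2 DAP mean rested largely on replicate 3 (adjusted p = 0.00334, called under every alternative). The receptor genes HK1 (GRMZM2G151223) and hk2 (GRMZM2G471529) were singled out after their values were seen. HK1 averaged 0.371 CPM at 2 DAP and 4.7 CPM in central cell, and hk2 averaged 0.488 and 2.41 CPM. Both were under 1 CPM on average at 2 DAP and passed the filter mainly through central cell. They therefore do not describe the receptors as a class. glu1 (GRMZM2G016890), which encodes a beta-glucosidase, fell 17.2-fold to 4.45 CPM, against 76.7 CPM. The number of members that rose was 4 without central cell replicate 2 and 5 without central cell replicate 1 or 2 DAP replicate 3.

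Most abscisic acid genes tested were lower, as was the gibberellin gene d3. d3 (GRMZM2G093195) encodes ent-kaurenoic acid oxidase of gibberellin synthesis and was at 4.02, 8.21 and 12.8 CPM at 2 DAP, against 114, 276 and 457 CPM in central cell. The groups did not overlap, although both varied several-fold within themselves, and the mean was 33.9-fold lower (adjusted p = 1.51e-06). The level at 1 DAP, 2.82 ± 0.61 CPM (SD, n = 3), was below that at 2 DAP. CPPS2 (GRMZM2G044481), a copalyl diphosphate synthase gene, averaged 0.0847 CPM at 2 DAP and 6.68 CPM in central cell. These were the 2 members of 6 that passed the filter, and both fell. CPPS2 passed it through central cell alone, so its fall follows from the filter and is not a further result. In the abscisic acid list 1 of 15 tested members rose and 9 fell (60%), with a median log2 change of -1.32. asr1 (GRMZM2G136910), named for abscisic acid, stress and ripening, was at 0.134, 0.0999 and 0.408 CPM at 2 DAP, against 15.5, 21.5 and 36.6 CPM in central cell (115-fold lower, adjusted p = 6.26e-10). The protein kinase gene SnRK2.11 (GRMZM2G063961) fell 10.3-fold. The number of members that rose was 3 without central cell replicate 3 and 2 without 2 DAP replicate 1, and 3 fell with a filter at 5 CPM. Neither of the 2 ethylene genes tested was called by limma, edgeR or DESeq2. The number that fell was 1 at an unadjusted limma p under 0.05 and 1 without a normalization factor. It was also 1 with the replicate number in the limma or edgeR model (a replicate block). The receptor gene ERS14 (GRMZM2G102601) was at 3.23 ± 0.659 CPM at 2 DAP and 5.08 ± 0.7 CPM in central cell (SD, n = 3 each; adjusted p = 0.0829).

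**Figure D3:**
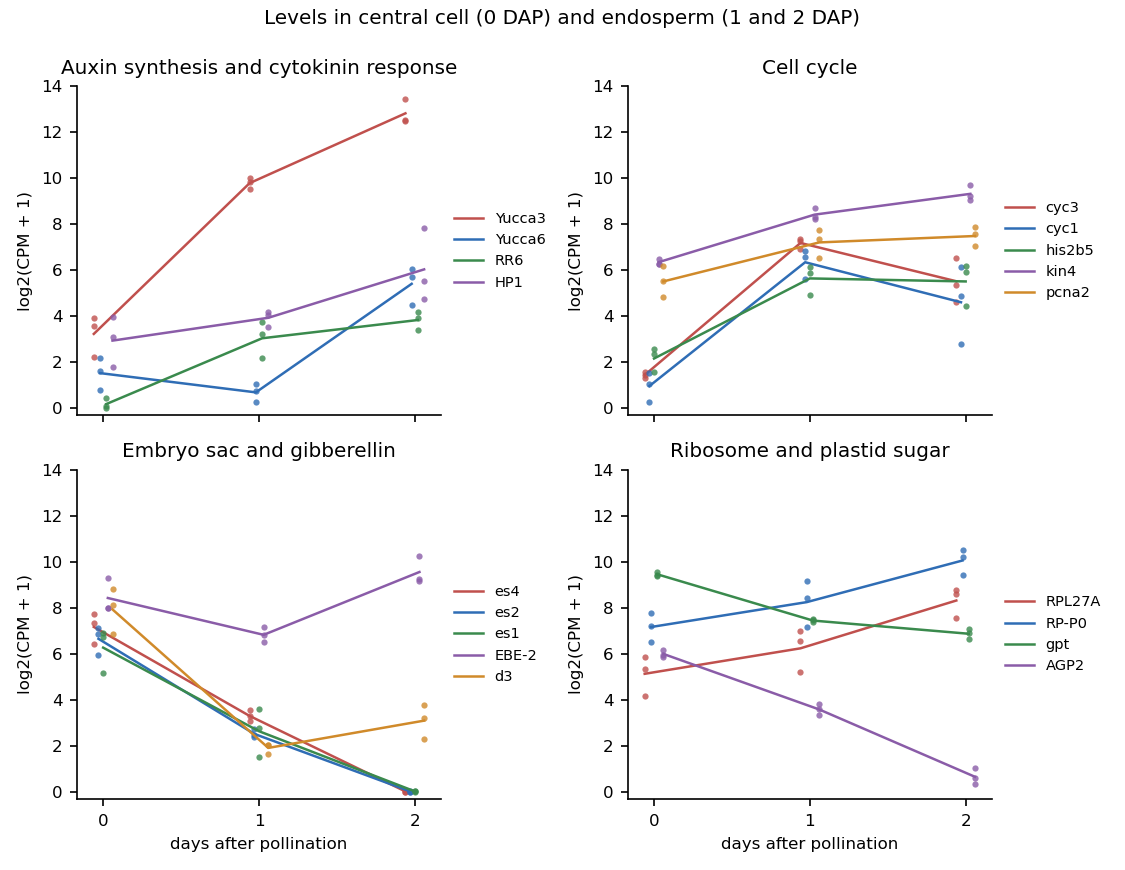
Levels at 0, 1 and 2 DAP as log2(CPM + 1); points are libraries (3 a stage), lines join the means, and the horizontal axis is days after pollination. Yucca3 climbs over both days, cyc3 and cyc1 are highest at 1 DAP, es1, es2 and es4 decline to near 0, and EBE-2 and d3 are lowest at 1 DAP.

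Polycomb genes changed in part and not as a block. Of 10 members, all tested, 5 rose and 3 fell. fie1 (GRMZM2G118205) encodes a WD40 subunit of the complex and is known in maize as an imprinted gene of the endosperm. It was at 121, 114 and 124 CPM in 2 DAP endosperm, against 0.208, 0.52 and 0 CPM in central cell, where 15, 42 and 0 reads were recovered. The 2 DAP libraries agreed closely with each other and the central cell libraries were near 0 (log2 change 6.62, SE 0.38, adjusted p = 1.3e-09). Its level at 1 DAP was 18.2 ± 8.35 CPM (SD, n = 3). fie2 (GRMZM2G148924), which encodes a close relative of the same subunit, was at 37.7, 37.7 and 68.9 CPM at 2 DAP, against 56.5, 53.6 and 56.8 CPM in central cell, in overlapping ranges (adjusted p = 0.432).

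The catalytic subunits of the complex are encoded by the mez genes, and these moved apart. mez1 (GRMZM2G157820) was at 157, 89.9 and 112 CPM at 2 DAP, against 67.4, 42.5 and 32.6 CPM in central cell, which is 2.52-fold higher (adjusted p = 0.000442). mez2 (GRMZM5G875502) was at 11.3, 14.4 and 10.5 CPM at 2 DAP, against 39.8, 59.4 and 45.2 CPM in central cell (3.99-fold lower, adjusted p = 4.42e-05). mez3 (GRMZM2G043484) was at 2.35, 4.23 and 3.4 CPM at 2 DAP, against 15.8, 22.7 and 15 CPM in central cell (5.36-fold lower, adjusted p = 0.000168). So mez1 rose and mez2 and mez3 fell, with no overlap in any of them. vef101 (GRMZM2G157422), which encodes the zinc-finger subunit, fell 2.98-fold, and nfc101, nfc102 and nfc103, which encode MSI1-like histone-binding subunits, rose 2.37-fold, 2.28-fold and 2.44-fold. nfc104 was at 102 ± 8.06 CPM at 2 DAP and 77.9 ± 6.14 CPM in central cell (SD, n = 3 each; adjusted p = 0.14).

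The list of DNA methylation and small RNA genes went both ways, and its members with the largest rises were DNA methyltransferase genes. met5 (GRMZM2G005310) and met2 (GRMZM2G025592) encode chromomethylases, which methylate DNA outside CG sites. met5 was at 410, 290 and 196 CPM at 2 DAP, against 5.3, 6.14 and 12.4 CPM in central cell (37.7-fold, adjusted p = 1.71e-09). met2 was at 181, 113 and 121 CPM at 2 DAP, against 9.25, 8.37 and 11.8 CPM in central cell (14.1-fold, adjusted p = 3.67e-09). met1 (GRMZM2G334041), the gene of the maintenance methyltransferase of CG sites, was at 649, 295 and 380 CPM at 2 DAP, against 81.7, 60.4 and 54.8 CPM in central cell (6.73-fold, adjusted p = 7.58e-06). In all 3 the ranges were far apart, and met5 and met2 were already at 283 and 112 CPM at 1 DAP. On the lower side stood rmr2 (GRMZM2G009208) and the RNA-dependent RNA polymerase gene mop1 (GRMZM2G042443), both of the pathway by which small RNAs direct DNA methylation, and the dicer model dcl4 (GRMZM2G160473). rmr2 averaged 4.97 ± 0.825 CPM at 2 DAP and 29.9 ± 2.84 CPM in central cell, and mop1 6.69 ± 1.22 and 14.4 ± 2.15 CPM (SD, n = 3 each). An argonaute6 model (GRMZM2G347402), of the protein family that carries small RNAs, rose to 34.7 CPM on average, against 15.2 CPM in central cell. Of the 29 genes in the list 7 rose and 7 fell, 24.1% each, which is close to the shares over all genes.

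**Figure D4:**
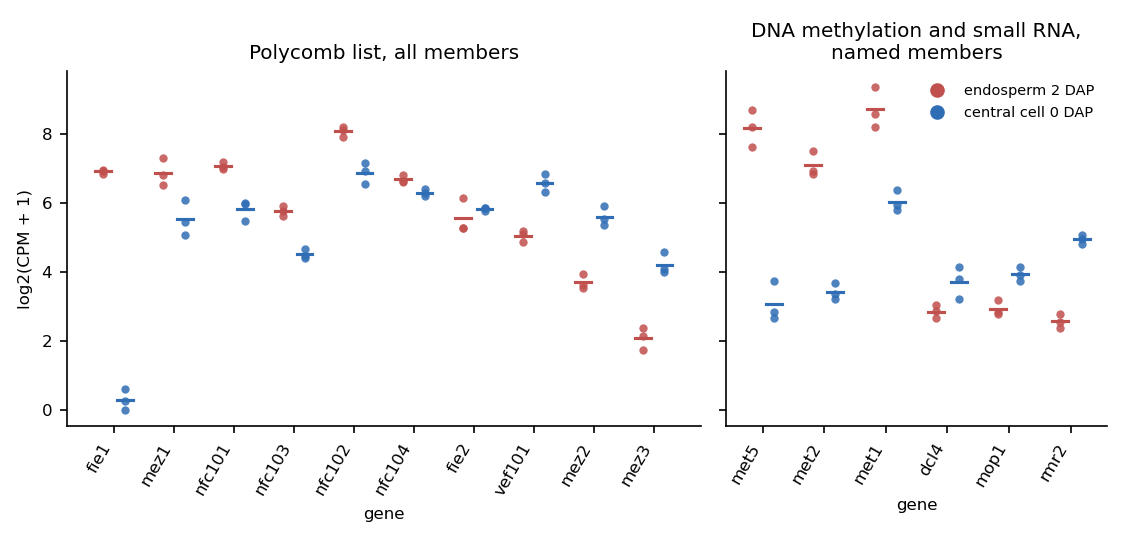
Polycomb genes (all 10) and the named genes of DNA methylation and small RNA pathways, as log2(CPM + 1) by library; 2 DAP endosperm left of central cell, bars are means of 3 libraries. fie1 is near 0 in central cell and at about 120 CPM at 2 DAP, and the mez genes move in opposite directions.

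Cell division genes were higher at 2 DAP in most lists. Of 12 histone genes, all tested, 10 rose (83.3%) and 0 fell by limma, with a median log2 change of 2.60. Histone mRNAs are made mainly while DNA is copied. his2b5 (GRMZM2G342515), a histone H2B gene, was at 72.7, 59.1 and 20.6 CPM at 2 DAP, against 2.02, 4.09 and 4.92 CPM in central cell (13.8-fold, adjusted p = 1.99e-05). The histone H4 model of H4C13 with the largest change (GRMZM2G084195) was at 163, 192 and 92.5 CPM at 2 DAP, against 3.09, 9.85 and 28 CPM in central cell. Other H4C13 models may share its reads. Replicate 3 was the lowest 2 DAP library and the highest central cell library for both genes, and the summed level of the 12 genes was 2109, 2155 and 755 CPM at 2 DAP, against 128, 235 and 493 CPM in central cell. The linker histone genes his1 and hon110 overlapped between groups, and their calls were lost without 2 DAP replicate 1.

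Replication genes went the same way, with 10 of 17 higher (58.8%) and 0 lower. Among histone and replication genes no member was lower by edgeR, by DESeq2 or at an unadjusted limma p under 0.05 (0 in each). Without the replicate 1 libraries of all groups 1 replication gene was lower. pcna2 (GRMZM2G108712), which encodes the sliding clamp of DNA polymerase, was at 187, 130 and 234 CPM at 2 DAP, against 27.4, 45.5 and 71.6 CPM in central cell (3.81-fold, adjusted p = 0.000833). RNRS3 (GRMZM2G323679), a small subunit gene of ribonucleotide reductase, which makes deoxyribonucleotides, was at 12.5, 10.2 and 23.4 CPM at 2 DAP, against 0.416, 1.22 and 2.8 CPM in central cell (10.4-fold, adjusted p = 5.98e-05). The origin recognition genes orc1, orc3 and orc4 rose, and orc2 did not pass (22 CPM at 2 DAP and 18.8 CPM in central cell on average, adjusted p = 0.597). Nor did the helicase gene MCM6, at 146, 40.8 and 80.3 CPM at 2 DAP, against 43.9, 25.3 and 28.3 CPM in central cell (adjusted p = 0.0817).

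Among cyclins and mitotic regulators 9 of 25 tested members rose (36%) and 3 fell (12%). The number that rose was 6 without central cell replicate 1 or 2 DAP replicate 3, and 12 without the replicate 1 libraries of all groups. Without a normalization factor 5 fell. The mitotic cyclin gene cyc3 (GRMZM2G073671) was at 23.9, 40.7 and 92.6 CPM at 2 DAP, against 1.5, 1.73 and 2 CPM in central cell. cyc1 (GRMZM2G034647), likewise a cyclin gene, was at 5.96, 28.3 and 70.7 CPM at 2 DAP, against 0.222, 1.11 and 1.93 CPM in central cell. Both were over 30-fold higher (30.1-fold and 32.2-fold, adjusted p = 4.83e-07 and 0.000689), with replicate 1 the lowest 2 DAP library, and both stood higher still at 1 DAP, at 145 ± 20.9 and 85.4 ± 33.4 CPM (SD, n = 3). The spindle checkpoint gene mad2 (GRMZM2G047143) peaked at 1 DAP with 230 ± 119 CPM and did not pass the test between 2 DAP (57 ± 34.4 CPM) and central cell (26.6 ± 8.48 CPM; adjusted p = 0.2). RBR2 (GRMZM2G153150), which encodes a retinoblastoma-related protein, a brake on entry into DNA replication, fell to 2.97, 4.35 and 3.45 CPM, against 30.9, 22.9 and 19.3 CPM in central cell (adjusted p = 5.55e-06). RBR1 did not pass (23.2 and 20.3 CPM on average, adjusted p = 0.6).

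The 2 models named cenH3, the centromeric variant of histone H3, went opposite ways. GRMZM2G157596 fell to 18.9, 25.1 and 23.7 CPM at 2 DAP, against 35.3, 64 and 58.8 CPM in central cell (adjusted p = 0.0073). GRMZM2G158526 was at 26.1, 58 and 111 CPM at 2 DAP, against 7.67, 19.4 and 32.2 CPM in central cell. Its ranges overlapped, and its call as higher (adjusted p = 0.0191) was lost without central cell replicate 1 or 2 DAP replicate 3. How the counting divided reads between the models is not given in the sources used here.

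Kinesins, motor proteins of the spindle and phragmoplast, leaned to the higher side, with 6 of 11 tested members up (54.5%) and 1 down, and kin4 (GRMZM2G320689) was at 590, 828 and 530 CPM at 2 DAP, against 76.5, 77.2 and 89.1 CPM in central cell (8.02-fold, adjusted p = 1.04e-06). kin11 and KIN8 rose 8.63-fold and 6.88-fold, also with separate ranges. Of 32 tubulins, actins and actin-binding proteins, 4 rose and 16 fell (50%), with a median log2 change of -0.81. TUB1 (GRMZM2G164696), a beta-tubulin gene, rose to 102, 337 and 292 CPM at 2 DAP, against 17.3, 19.3 and 46.8 CPM in central cell, and TUBB5 (GRMZM2G133802) rose 4.61-fold. TUBA5 and TUBB4 fell 7.12-fold and 5.48-fold. The Actin-7 model GRMZM2G006765 was at 20.2, 19.7 and 20.9 CPM at 2 DAP, against 275, 207 and 409 CPM in central cell (14.6-fold lower, adjusted p = 2.67e-08), while another model of that name, GRMZM2G067985, did not pass (adjusted p = 0.289). The number of members that rose was 2 without 2 DAP replicate 1 and 2 without a normalization factor.

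Ribosomal protein genes rose nearly throughout. Of 37 tested, 30 rose (81.1%) and 2 fell, with a median log2 change of 1.85, and together the 38 members summed to 26426, 37627 and 42949 CPM at 2 DAP, against 7633, 9909 and 12051 CPM in central cell. RPL27A (GRMZM2G047732) was at 189, 440 and 389 CPM at 2 DAP, against 17.1, 40.3 and 57.5 CPM in central cell (8.86-fold, adjusted p = 6.35e-05). RP-P0 (GRMZM2G066460), a protein of the ribosomal stalk, was at 697, 1199 and 1446 CPM at 2 DAP, against 91, 147 and 218 CPM in central cell (7.32-fold, adjusted p = 0.00017). In both genes replicate 1 was the lowest library of its group, and no 2 DAP library overlapped the central cell range. The stalk protein gene arpp2b (GRMZM2G114954) was the clear exception and fell to 96.2 ± 15.1 CPM, against 322 ± 87.9 CPM in central cell (SD, n = 3 each; adjusted p = 0.000547). Calls of 8 of the 30 genes were lost under at least 1 alternative, the number that fell was 1 without 2 DAP replicate 1 or 2 or central cell replicate 2 or 3, and copies of such genes may share reads.

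Translation factors followed, with 7 of 13 higher (53.8%) and 1 lower. The elongation factor gene elfa2 (GRMZM2G149768) was at 1772, 2053 and 2388 CPM at 2 DAP, against 684, 491 and 845 CPM in central cell (3.08-fold, adjusted p = 0.000208). eIF3A (GRMZM2G093050), an initiation factor gene, rose 2.95-fold. tif1 (GRMZM5G835323) fell 8.87-fold to 8.64 ± 3.97 CPM, against 76.6 ± 29.9 CPM (SD, n = 3 each).

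**Figure D5:**
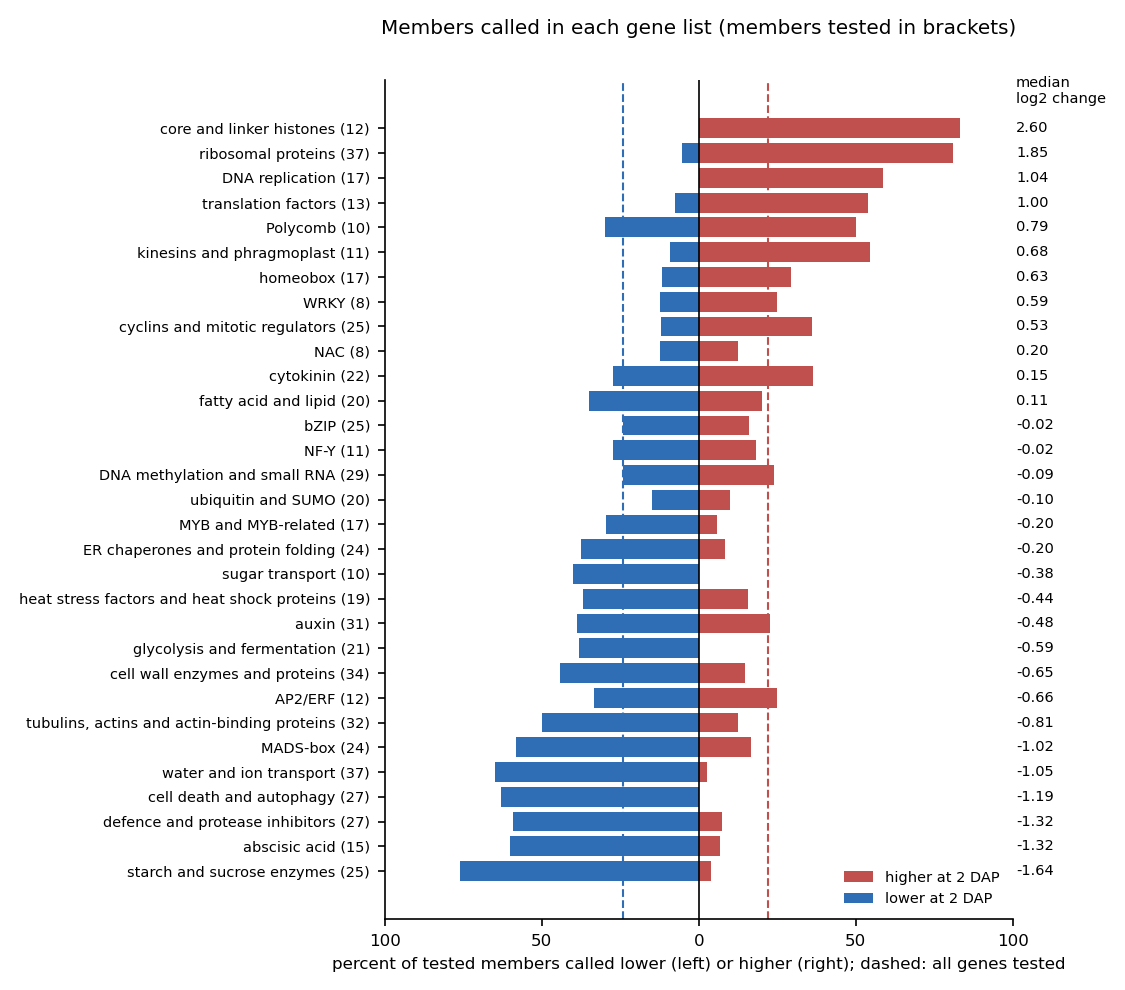
Percent of the tested members of each gene list called lower (blue, left) or higher (red, right) at 2 DAP than in central cell, with lists of 8 or more tested members in order of their median log2 change; dashed lines are the shares over all 26511 genes, 24.2% lower and 21.9% higher. Histones and ribosomal proteins lie at the top and starch and sucrose enzymes, with 76% lower, at the bottom.

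Starch and sucrose enzymes showed the largest share of falls among lists with 8 or more tested members, 19 of 25 (76%), with 1 rise and a median log2 change of -1.64. These enzymes build starch from ADP-glucose or cleave sucrose, and the kernel uses them in bulk at later stages. The ADP-glucose pyrophosphorylase gene AGP2 (GRMZM2G027955; the gene Agp2 is another model) was at 1.04, 0.542 and 0.272 CPM at 2 DAP, against 70.1, 61.8 and 57.9 CPM in central cell (102-fold lower, adjusted p = 2.72e-09). BMY1 (GRMZM2G058310), a beta-amylase gene of starch breakdown, was at 1.47, 1.74 and 1.51 CPM at 2 DAP, against 29.6, 55.2 and 85 CPM in central cell (36-fold lower, adjusted p = 3.65e-07). The ranges were wholly separate for both. The sucrose synthase genes sus1 and sh1 fell 8.13-fold and 5.84-fold. IVR1 (GRMZM2G394450), an invertase gene, was the member that rose, to 15.1, 23.9 and 29.5 CPM, against 4.54, 5.31 and 10.5 CPM in central cell (adjusted p = 0.00247). The cell wall invertase genes mn1 and incw1 averaged under 0.5 CPM in both groups, and sh2, du1 and iso2 did not pass.

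Sugar transport and glycolysis held no member that rose by limma, edgeR or DESeq2 (2 transport genes and 0 glycolytic genes at an unadjusted limma p under 0.05). Of 10 transport genes tested, 4 fell. With a replicate block in limma or edgeR, 2 transport genes rose and 5 fell. The number that rose was also 2 without the replicate 1 libraries of all groups, and 1 in a limma fit of only the 6 libraries compared. The plastid glucose transporter gene pGlcT (GRMZM2G153704) was at 142, 151 and 221 CPM at 2 DAP, against 1095, 1118 and 907 CPM in central cell (6.07-fold lower, adjusted p = 1.33e-07). gpt (GRMZM2G180720), which encodes the plastid translocator of glucose 6-phosphate, was at 100, 133 and 119 CPM at 2 DAP, against 671, 685 and 757 CPM in central cell (adjusted p = 1.97e-08). Both were tight within groups and wide apart. Of 21 genes of glycolysis and fermentation, 8 fell (38.1%), with a median log2 change of -0.59. pdc3 (GRMZM2G087186), a pyruvate decarboxylase gene, fell 7.21-fold, both phosphoglucose isomerase models named phi1 (GRMZM6G477257 and GRMZM2G065083) fell, and the alcohol dehydrogenase gene adh1 (GRMZM2G442658) fell to 175 ± 66.7 CPM, against 462 ± 125 CPM (SD, n = 3 each). gpc4, eno2 and Pgk-2 did not pass.

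Water and ion transporters fell in 24 of 37 tested cases (64.9%), with 1 rise and a median log2 change of -1.05. NIP1-1 (GRMZM2G041980), an aquaporin gene of the nodulin-like class, was at 0.0764, 0 and 0.443 CPM at 2 DAP (8, 0 and 39 reads), against 41.6, 111 and 117 CPM in central cell (520-fold lower, adjusted p = 1.55e-07). The phosphate transporter gene pht7 (GRMZM2G112377) was at 0.201, 0.314 and 0.284 CPM at 2 DAP, against 26.9, 53.7 and 134 CPM in central cell (268-fold lower, adjusted p = 7.29e-07). Both genes were near 0 in every 2 DAP library and varied several-fold among central cell libraries. The potassium transporter gene HAK5 (GRMZM2G084779) reached 53.9 ± 10.7 CPM at 1 DAP and was low on either side, at 1.38 ± 0.979 CPM at 2 DAP and 3.77 ± 3.57 CPM in central cell (SD, n = 3 each). The member that rose was mha4 (GRMZM2G006894), a plasma membrane proton pump gene, with 66.8, 66.1 and 88.4 CPM at 2 DAP, against 20.6, 24.5 and 37.6 CPM in central cell, and 174 ± 89 CPM at 1 DAP. HAK5 was singled out after its values were seen. Without central cell replicate 1 the number that rose was 2, and with a filter at 5 CPM, which fewer members pass, 11 fell.

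Cell wall genes fell in 15 of 34 tested cases (44.1%) and rose in 5. CesA12 (GRMZM2G142898) and CesA13 (GRMZM2G002523), cellulose synthase genes with closely similar profiles, averaged 0.101 and 0.166 CPM at 2 DAP, against 19.1 and 23.2 CPM in central cell. HRGP (GRMZM2G168651), a hydroxyproline-rich wall protein gene, was at 5.12, 15.2 and 6.03 CPM at 2 DAP, against 65.2, 292 and 446 CPM in central cell (30.5-fold lower, adjusted p = 3.05e-06). A cellulase gene (GRMZM2G453565) rose to 17.4, 33.9 and 31.4 CPM, against 2.23, 3.9 and 6.29 CPM in central cell (6.66-fold, adjusted p = 0.000293). CesA-3, CesA-5 and CesA-6 did not pass. The number of members that rose was 3 without 2 DAP replicate 2.

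Of the transcription factor families, MADS-box genes had the largest share of falls. Of 24 tested members 14 fell (58.3%) and 4 rose, or 2 by edgeR and without central cell replicate 1 or 2 or 2 DAP replicate 2 or 3. MADS67 (GRMZM2G147716) was at 4.49, 2.6 and 4.44 CPM at 2 DAP, against 25.5, 34.2 and 32.7 CPM in central cell (8.01-fold lower, adjusted p = 2.32e-05), and m20 and zmm6 fell 5.56-fold and 6.45-fold. MADS42 (GRMZM2G375707), singled out after its values were seen, was at 2.47, 11 and 7.23 CPM at 2 DAP, against 0, 0.0124 and 0 CPM in central cell (adjusted p = 0.000183), and averaged 0.0516 CPM at 1 DAP.

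The other families were nearer to the shares over all genes. WRKY1 (GRMZM2G018487) was at 7.91, 10.8 and 22.3 CPM at 2 DAP, against 1.66, 0.693 and 1.32 CPM in central cell (11.2-fold, adjusted p = 2.56e-05). EREB171 (GRMZM2G013657), an AP2/ERF gene, was at 47.1, 61.6 and 101 CPM at 2 DAP, against 10.1, 15 and 16.3 CPM in central cell (5.08-fold, adjusted p = 5.07e-06). EREB14 and EREB94 rose 4.78-fold and 3.85-fold, so the 3 AP2/ERF rises of 12 tested stood beside 4 falls. homeobox1 and homeobox2 were among the 5 of 17 homeobox genes that rose (3 without a normalization factor). GBF1 (GRMZM2G011932), a bZIP gene, fell 7.22-fold, bZIP103 rose 3.67-fold, and NAC12 rose 1.84-fold. Of 17 MYB and MYB-related genes tested, 5 fell, among them MYBR67, and 1 rose (2 without 2 DAP replicate 1).

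Defence and cell death genes were mostly lower. Of 27 defence and protease inhibitor genes tested, 16 fell (59.3%) and 2 rose, with a median log2 change of -1.32. Cystatins inhibit cysteine proteases, and cystatin6 (GRMZM2G401328) was at 0.726, 1.51 and 1.17 CPM at 2 DAP, against 13.3, 38.9 and 81.9 CPM in central cell (39.4-fold lower, adjusted p = 9.66e-06). Cystatin2 and the glutathione S-transferase gene gst4 fell 19.5-fold and 26.4-fold. cystatin8 (GRMZM2G401374), singled out after its values were seen, was at 12.5, 60.8 and 66.5 CPM at 2 DAP, against 28.6, 55.2 and 65.8 CPM in central cell, and dropped to 1.33 ± 0.313 CPM at 1 DAP (SD, n = 3). The serine protease inhibitor gene Serpin-Z1 (GRMZM5G865319) rose 4.58-fold. In the cell death and autophagy list 17 of 27 tested members fell (63%) and 0 rose by limma, edgeR, DESeq2 or at an unadjusted limma p under 0.05, with a median log2 change of -1.19. The cysteine protease genes see1 (GRMZM2G038636) and ccp1 (GRMZM2G098298) fell 7.59-fold and 6.17-fold, and the autophagy gene Atg8d averaged 41.6 CPM at 2 DAP and 179 CPM in central cell. Atg7 and atg6 did not pass, and 1 member rose without central cell replicate 2. With a filter at 5 CPM, 10 defence genes fell.

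The remaining genes with the largest changes belong to other pathways. CAOMT (GRMZM5G814904), which encodes a caffeic acid O-methyltransferase of lignin synthesis, was at 32.4, 101 and 96.7 CPM at 2 DAP, against 0.208, 0.841 and 2.49 CPM in central cell (65.2-fold, adjusted p = 9.25e-06), and averaged 1.17 ± 1.1 CPM at 1 DAP (SD, n = 3). sfp5 (GRMZM2G444801) rose 71.3-fold, from 8, 10 and 10 reads in central cell. Dmc1 (GRMZM2G109618), a meiotic recombinase gene, was at 0.258, 1.07 and 0.477 CPM at 2 DAP, against 37, 33.2 and 37.4 CPM in central cell (59.6-fold lower, adjusted p = 2.01e-08). GAD (GRMZM2G017110) fell 214-fold, psiP (GRMZM2G060659) 120-fold and the mitogen-activated protein kinase gene MAPK (GRMZM2G053987) 38.6-fold, each with separate ranges. At 2 DAP, GAD had 9, 15 and 10 reads and psiP 60, 8 and 4 reads, so the sizes of these folds are imprecise.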

How the data were processed

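The members and the gene lists were chosen with earlier results of these data known. The deposited table holds a signal per gene and library, in CPM after the authors' normalization; every value was a whole multiple of 1 read within 0.001 reads, so read counts were recovered for 100.0% of values. Column totals of the 6 libraries ran from 973715.5 to 1241737.6. Per the submitters' processing notes, Trimmomatic, TopHat2 2.0.9, bedtools 2.17.0 and edgeR were used with B73 RefGen_v3; strandedness and the handling of shared reads were not stated in the sources. Names came from a RefSeq table of a later assembly (14444 of 38300 identifiers matched, 1660 tested genes named). limma 3.58.1 (trended variance, R 4.3.3) was fitted to log2(CPM + 1) of all 18 libraries with 1 mean per group, which understates changes of genes near 1 CPM. It was also run on simulated counts with the same dispersion for every gene and no effect of ear. Such counts are simpler than these data, so that run does not give error rates for the calls here. edgeR 4.0.16 and DESeq2 1.42.0 on recovered reads, other filters, pseudocounts and scalings, and left-out libraries were alternatives. By the rule for naming genes, they were called, had separate ranges and averaged at least 10 CPM in 1 group: the 12 largest named changes each way, and up to 3 each way in every list (its most abundant member where none met this). Marker genes were named from 1 CPM in either group. Other genes in the text, such as CPPS2, HK1 and MADS42, fall outside this rule and were chosen after their values were seen. Reads come from amplified RNA, so depth limits cover counting error only.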

Additional observations from a re-analysis of the deposited data

How the results depend on the processing

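Under the 19 alternatives the calls stayed within 1.5 times of 12208 genes, from 8170 to 14999, and so did the genes higher at 2 DAP. The genes lower at 2 DAP numbered 3694 with a filter at 5 CPM, under which 15334 genes were tested, and fewer list members fell there too: 2 cytokinin, 2 AP2/ERF, 3 bZIP, 4 heat shock and 1 MYB. Leaving out each of the 6 libraries in turn gave 10578 to 11267 calls, 4971 to 5256 of them higher and 5552 to 6011 lower. edgeR called 5414 genes higher and 6383 lower and shared 94.2% of the calls, DESeq2 called 5876 and 6816 and shared 97.4%, and neither called a gene in the opposite direction. Of 137 named genes called, 125 were called under every alternative that tested them and none changed sign. The labels share replicate numbers across groups but do not say what a number marks, so the numbers were not taken as pairs. Deviations from the group means correlated at 0.526, 0.0583 and 0.291 for numbers 1, 2 and 3. Among unlike numbers, 2 DAP replicate 2 and central cell replicate 3 correlated best (0.308). Deviations cancel out within a group, so these values depend on each other and cannot decide whether the numbers are pairs. With a replicate block 7282 genes were higher and 7717 lower. With 3 libraries a group the spread between ears limits precision: the SE of the log2 change was 0.79 for Yucca3 and 0.77 for HP1. Levels of 3 reads or fewer are not told apart from 0.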

Other observations

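Lipid, protein folding and heat shock lists were mixed. fad8 (GRMZM2G074401), a fatty acid desaturase gene, was at 32.5, 41.4 and 35.5 CPM in 2 DAP endosperm, against 8.39, 5.8 and 4.14 CPM in central cell (5.96-fold, limma adjusted p = 0.00106), and another desaturase gene, fad6, rose 2.47-fold. The lipid transfer gene plt1 (GRMZM2G101958) was at 5.08, 6.05 and 3.49 CPM at 2 DAP, against 73.1, 98.5 and 102 CPM in central cell (18.7-fold lower, adjusted p = 7e-07). Of 20 lipid genes tested, 4 rose and 7 fell. CRT (GRMZM2G358059), the gene of calreticulin, a chaperone of the endoplasmic reticulum, was at 159, 182 and 441 CPM at 2 DAP, against 1547, 1468 and 2796 CPM in central cell (7.43-fold lower, adjusted p = 3.38e-05). Of 24 folding genes 2 rose (4 without 2 DAP replicate 2) and 9 fell (5 without 2 DAP replicate 1). Among heat shock genes HSP90-2 and hsp70-4 rose 2.51-fold and 2.34-fold, while hsp18a and the heat stress factor gene Hsf01 fell 6.29-fold and 3.39-fold, so 3 of 19 tested rose and 7 fell. Of 11 NF-Y genes 2 rose and 3 fell, and 1 rose without 2 DAP replicate 1 or 3. Of 20 ubiquitin and SUMO genes 2 rose and 3 fell. Without central cell replicate 3 these were 0 and 1, without central cell replicate 2 they were 1 and 1, without 2 DAP replicate 1 the number that fell was 1, and without 2 DAP replicate 3 the number that rose was 1.

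The storage protein gene gz27 (GRMZM2G138727), a gamma zein, had 4, 0 and 8 reads in 2 DAP endosperm, against 91, 450 and 214 reads (1.26, 5.57 and 5.22 CPM) in central cell.

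Genes without a name also reached the ends of the range. AC191691.3_FG011 was at 450, 811 and 385 CPM at 2 DAP, against 0.235, 2.26 and 0.756 CPM in central cell, and GRMZM2G469380 was at 772, 1396 and 2088 CPM, against 4.94, 9.86 and 13.2 CPM. GRMZM2G389937 had the largest fall of all genes tested on the log2(CPM + 1) scale. It was at 0.172, 0.214 and 0.579 CPM at 2 DAP, against 313, 885 and 2232 CPM in central cell (log2 change -9.35, SE 0.52, adjusted p = 9.96e-10), and averaged 173 ± 91.5 CPM at 1 DAP (SD, n = 3). GRMZM2G004947 was at 0.965, 0.314 and 0.193 CPM at 2 DAP, against 267, 480 and 961 CPM in central cell.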
